A study of Mus musculus with 8 samples.

Results

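The 10 immediate early genes described here were Fos, Fosb, Fosl2, Jun, Junb, Jund, Egr1, Ier2, Ier3 and Ier5, out of 20280 genes that had a named probe on the arrays. They were found by symbol: every non-control probe whose accession belongs to one of these genes in RefSeq was taken, which gave 12 probes, with 2 each for Fosl2 and Ier5 and 1 for each other gene. Liver RNA was compared between mice lacking Btg2 and wild-type C57BL/6J mice. Btg2, also called TIS21 or PC3, is itself an immediate early gene and restrains cell growth. Of the 4 RNA samples, KO-Ad and WT-Ad came from knockout and wild-type males aged 10 weeks and fasted for 20 h, and KO-Fetal and WT-Fetal from knockout and wild-type fetal livers of embryonic day 13.5, each a pool of more than 3 fetuses of both sexes. All adult mice, of either genotype, had been fasted, and no fed adult was analysed here. How Btg2 was removed, in which cells, and whether an adult sample was 1 mouse or several are not given in the sources used here.

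Each RNA sample was hybridised to 2 single-colour arrays, which the series describes as technical duplicates. With 1 RNA sample in each group, the p-values below reflect only the error between arrays, and they say nothing of the spread between animals. The 75th percentile of processed signal was 170 to 171 on the KO-Ad arrays, 132 to 133 on the WT-Ad arrays, 278 to 279 on the KO-Fetal arrays and 325 to 334 on the WT-Fetal arrays. Duplicate arrays correlated at 0.992 to 0.997 across the 14574 genes tested. The Btg2 probe was detected well above background in both wild-type samples and on none of the 4 knockout arrays. Whether it lies in the deleted part of the gene is not stated. Its signal was 6.26 and 8.02 in KO-Ad against 149 and 158 in WT-Ad, and 4.54 and 5.14 in KO-Fetal against 2071 and 2079.9 in WT-Fetal. Of 6 hepatocyte markers, all were well above background on both arrays of each adult sample and 4 on both arrays of each fetal pool.

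Immediate early genes are transcribed within minutes of a signal without new protein having to be made first. Growth factor and stress signals reach them through kinases that act on promoter-bound factors such as SRF with its Elk partners and CREB, and their mRNAs are short-lived. Fos and Jun family proteins pair through leucine zippers to form AP-1, Egr1 is a zinc finger transcription factor, and the Ier genes encode small, unrelated or loosely related proteins. In liver the group is known for its brief induction after partial removal of the organ.

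Promoter sequence is shown for Jun and Ier5, which were called in the adult knockout comparison, for Ier3, which differed most between stages, and for Fos, the prototype of the group. RefSeq promoters of assembly GRCm38.p6 were at hand for 8 of the 10 genes, and the 250 bases before the annotated start are given, 5′ to 3′. None was at hand for Egr1 and Ier2. Capitals mark matches, on either strand, to the elements searched: the CArG box bound by SRF, the cAMP response element TGACGTCA, its half-site TGACG, the AP-1 site TGANTCA, the variant TGACATCA, the Egr site GCGNGGGCG and the TATA element TATAAA. The half-site is contained in the full cAMP response element. The windows are chr4:95052223-95052472 (minus strand) for Jun, chr1:155099637-155099886 (minus strand) for Ier5, chr17:35821463-35821712 (plus strand) for Ier3 and chr12:85473640-85473889 (plus strand) for Fos.
Jun: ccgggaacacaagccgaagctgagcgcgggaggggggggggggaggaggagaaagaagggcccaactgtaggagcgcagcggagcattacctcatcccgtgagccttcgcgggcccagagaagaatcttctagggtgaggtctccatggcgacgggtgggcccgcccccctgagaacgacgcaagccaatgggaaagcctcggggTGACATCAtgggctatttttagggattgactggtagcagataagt
Ier5: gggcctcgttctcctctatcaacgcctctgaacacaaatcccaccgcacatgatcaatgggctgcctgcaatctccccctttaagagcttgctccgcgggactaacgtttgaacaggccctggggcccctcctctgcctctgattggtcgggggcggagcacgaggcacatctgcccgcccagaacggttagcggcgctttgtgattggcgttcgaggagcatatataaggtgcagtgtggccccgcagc
Ier3: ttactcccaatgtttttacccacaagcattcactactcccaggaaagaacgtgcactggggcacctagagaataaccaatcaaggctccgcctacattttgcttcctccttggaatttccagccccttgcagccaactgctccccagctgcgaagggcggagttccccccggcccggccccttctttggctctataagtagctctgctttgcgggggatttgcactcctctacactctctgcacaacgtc
Fos: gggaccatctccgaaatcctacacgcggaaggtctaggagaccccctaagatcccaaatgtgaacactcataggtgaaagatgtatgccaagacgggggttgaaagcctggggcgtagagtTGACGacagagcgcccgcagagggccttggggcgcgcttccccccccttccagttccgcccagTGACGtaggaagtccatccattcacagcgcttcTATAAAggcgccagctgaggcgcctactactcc

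The Jun window held TGACATCA from -45 to -38, counted from the annotated start, an element found in 2.93% of 32851 promoter windows of the same length. The Fos window held TATAAA from -33 to -28 (12.4% of all windows) and the half-site TGACG at -129 to -125 and at -66 to -62 (17.8% of all windows). The half-site also lay in the windows of Fosb and Junb, and the Egr site GCGGGGGCG (its pattern is in 4.70% of all windows) in those of Fosb and Fosl2. No CArG box, full cAMP response element or TGANTCA lay in the 8 windows, against 1.47%, 1.55% and 6.75% of all windows, and the Ier3 and Ier5 windows held none of the elements. Egr1 and Ier2 had no window and were not searched. A match is a run of letters and not a measured binding site, and a missing match says only that the letters are not in this window.

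Of the 10 genes, 3 were called in adult liver: Jun and Egr1 fell and Ier5 rose in the knockout sample. A call needed an adjusted p under 0.05 in limma (Benjamini-Hochberg over 14574 genes) and a difference of at least 2-fold. In the same comparison 1090 of 14574 genes, or 7.48%, were called, 4.95% higher and 2.53% lower. The members' differences were split evenly, with 5 above and 5 below 0 and a median of 0.15 on the log2 scale, against a median of -0.10 over all genes tested. Adjusted p was under 0.05 at any fold for 8 of the 10, against 55.5% of all genes. On scaled signal the duplicate arrays of KO-Ad and WT-Ad did not overlap for any of the 10, and the same held for 77.3% of all genes. Below, levels are scaled signals, the log2 of the processed signal minus that array's 75th percentile of log2 signal. Levels of different probes are not comparable with each other.

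**Figure D1:**
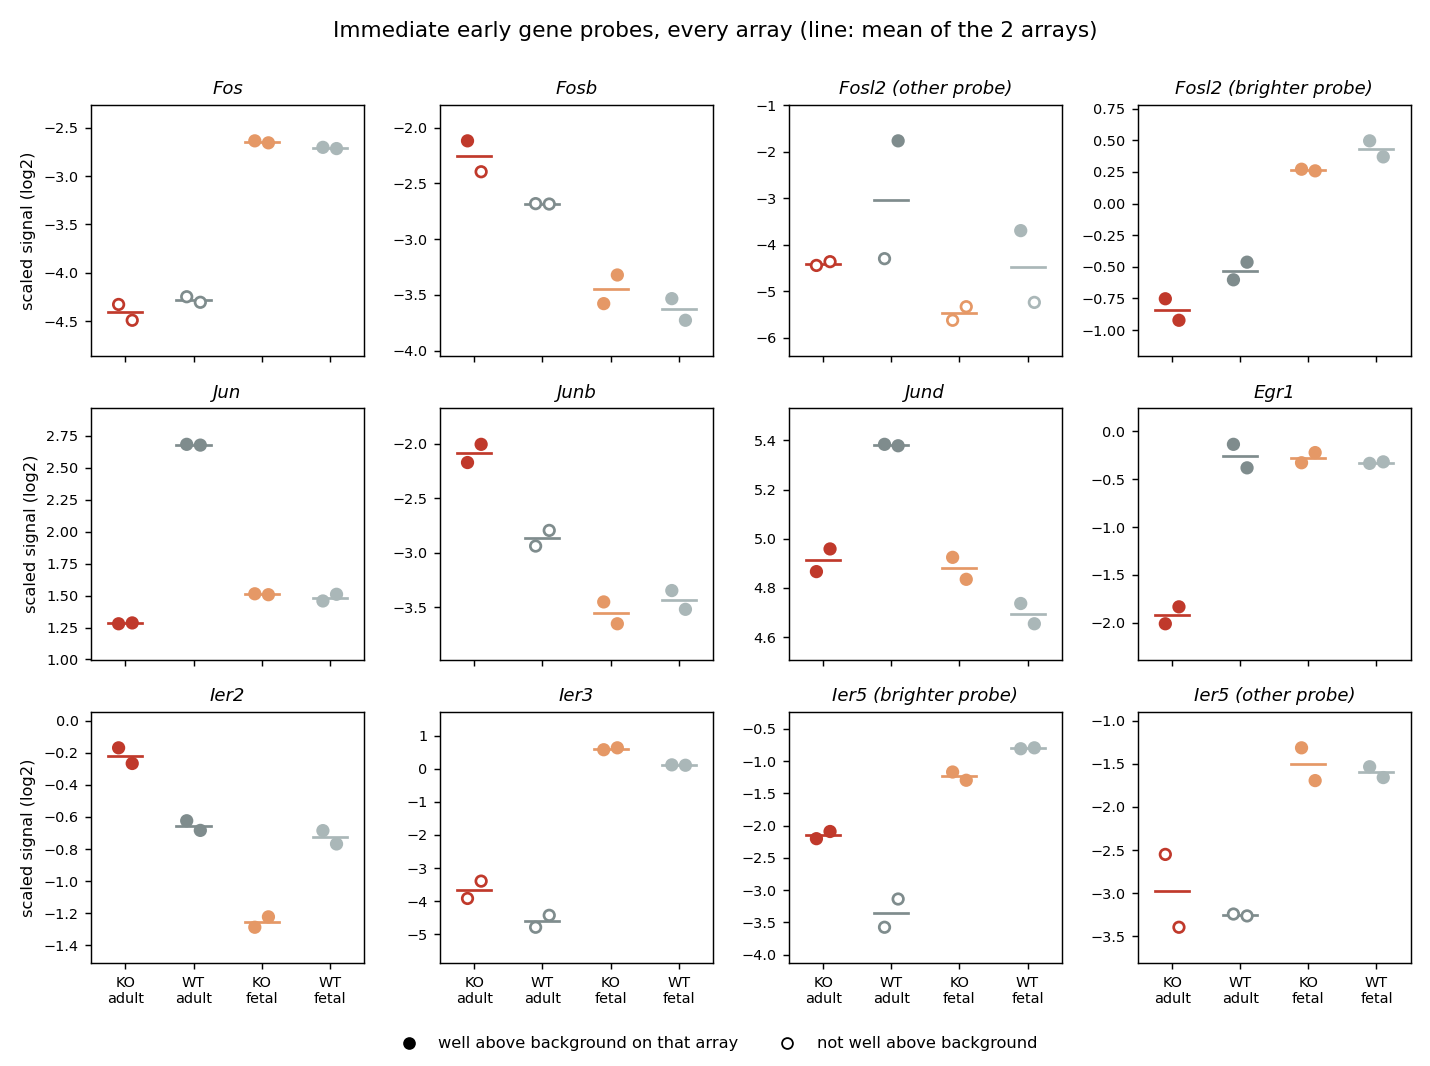
Scaled signal (log2, y axis) of all 12 probes on each of the 8 arrays, by group (x axis; KO adult, WT adult, KO fetal, WT fetal), with a line at the mean of the 2 arrays of a group and open symbols where a probe was not well above background. Jun lies between 1.28 and 1.29 in KO adult and at 2.68 on both WT adult arrays, while its fetal arrays lie between 1.46 and 1.51.

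Among the Jun family, Jun, which encodes the c-Jun subunit of AP-1, had scaled signals of 1.28 and 1.29 in KO-Ad, against 2.68 and 2.68 in WT-Ad. Its processed signals were 415 and 414 in KO-Ad and 855 and 846 in WT-Ad. Jun fell by 1.40 ± 0.03 on the log2 scale (SE; 2.63-fold; adjusted p = 2.1e-07, limma), and duplicates within a sample lay less than 0.01 apart. The fall was past 2-fold under all 21 alternatives run, with differences from -1.40 to -1.18. Jun, like Egr1 below, has a single probe. Alternatives changing only the test, the filter or the probes, or leaving out fetal arrays, could not move the adult difference of either gene.

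Jund, the Jun family gene whose mRNA is known to be present in resting cells, had scaled signals of 4.87 and 4.96 in KO-Ad, against 5.38 and 5.38 in WT-Ad. It differed by -0.47 ± 0.05 (adjusted p = 9.9e-05, limma), short of 2-fold, and was well above background on all 8 arrays. Junb, whose protein often opposes c-Jun, stood on the other side: its scaled signals were -2.17 and -2.01 in KO-Ad, where it was well above background, against -2.94 and -2.80 in WT-Ad, where it was not. Set against the lowest signal that counted as well above background on the WT-Ad arrays, Junb was at least 1.31-fold higher in KO-Ad (fitted difference 0.78 ± 0.19, adjusted p = 0.0092, limma), which was not called. With quantile normalization and with the deposited value table its fitted difference passed 2-fold (1.14 and 1.11). With normexp it was 0.16 (adjusted p = 0.0909, limma), smaller than the 1.31-fold bound. The differences of Jun and Jund lay below 0 and that of Junb above 0 under all the alternatives run.

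Egr1, which encodes a zinc finger factor of the growth response, had scaled signals of -2.01 and -1.83 in KO-Ad, against -0.13 and -0.38 in WT-Ad. Its processed signals were 42.4 and 47.6 in KO-Ad and 121 and 102 in WT-Ad, well above background on all arrays. Egr1 fell by 1.66 ± 0.11 (3.17-fold; adjusted p = 1.8e-05, limma). The difference was -0.94 with normexp background correction (offset 50), short of 2-fold, and past 2-fold under the other 20 alternatives, with limma's adjusted p from 1.9e-06 to 3.3e-04 where one was computed.

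In the Fos family, no member was called in adult liver. The Fos probe, printed 10 times per array, was not well above background on the KO-Ad or the WT-Ad arrays, so no fold is given. The median over its unflagged spots was 6.55 and 7.64 in KO-Ad, against 6.93 and 5.70 in WT-Ad, and single spots ran from 4.93 to 25.6 in KO-Ad and from 5.19 to 10.74 in WT-Ad, so the single spots of the 2 samples overlapped, although the array means did not. Fosb, a close relative of Fos, had scaled signals of -2.12 and -2.40 in KO-Ad, well above background on 1 of the 2 arrays, against -2.68 and -2.69 in WT-Ad, well above background on neither. Its fitted difference of 0.43 ± 0.20 did not pass the test (adjusted p = 0.108, limma) and was -0.064 with normexp.

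Fosl2, also called Fra-2, was measured in all samples by its brighter probe, with -0.75 and -0.92 in KO-Ad against -0.60 and -0.46 in WT-Ad. It differed by -0.30 ± 0.09 (adjusted p = 0.0244, limma), a difference under 2-fold. The other Fosl2 probe was well above background on 1 WT-Ad array and 1 WT-Fetal array only, where its processed signal was 38.9 and 25.7, and its other 6 signals ran from 5.65 to 8.59. It was not tested, since no group had it well above background on both of its arrays.

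**Figure D2:**
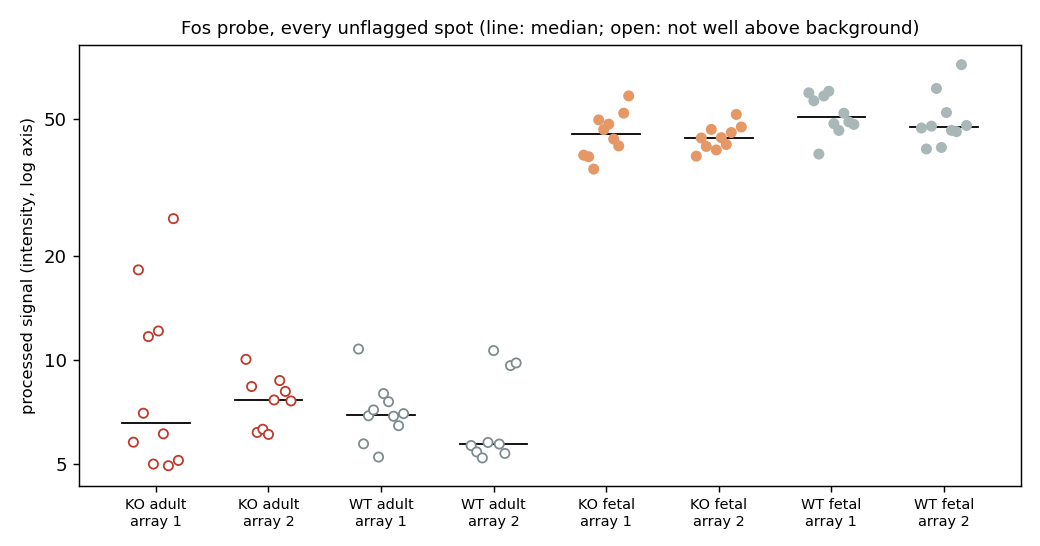
Processed signal (intensity, log axis) of every unflagged spot of the Fos probe on each array (x axis, grouped as KO adult, WT adult, KO fetal, WT fetal), with the median as a line. The adult medians lie between 5.70 and 7.64, and all fetal medians are higher, between 43.95 and 50.3.

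Of the Ier genes, Ier5 was called and Ier2 and Ier3 were not. Ier5, whose product is linked in human cells to the heat shock factor HSF1, had scaled signals of -2.20 and -2.09 in KO-Ad, well above background, against -3.58 and -3.14 in WT-Ad, below that mark. Ier5 was at least 1.26-fold higher in KO-Ad (fitted difference 1.21 ± 0.17, adjusted p = 6.6e-04, limma). The call was lost with normexp (0.13), with the mean of both Ier5 probes (0.74) and without the first WT-Ad array (0.99). The normexp value was smaller than the 1.26-fold bound. The other Ier5 probe was not well above background on any adult array and differed by 0.28 ± 0.28 (adjusted p = 0.461, limma, every probe tested on its own), so the 2 probes did not give the same size.

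Ier2, a nuclear protein gene induced by growth factors, had scaled signals of -0.17 and -0.27 in KO-Ad against -0.62 and -0.68 in WT-Ad, a difference of 0.44 ± 0.09 (adjusted p = 0.00376, limma). Ier3, also called IEX-1, which modulates survival signalling, was not well above background on the 4 adult arrays, with processed signals of 11.3 and 16.1 in KO-Ad and 4.83 and 6.16 in WT-Ad. No fold is given for it there. The fitted value of Ier3 (0.95) passed 2-fold under 6 alternatives, among them quantile normalization (1.49), and was -0.08 with normexp.

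The choice of scaling moved the adult comparison as a whole. The median of all genes was -0.10 as reported, 0.01 with quantile normalization, 0.09 with median scaling and 0.03 with scaling on detected probes. The calls split 722 higher and 368 lower as reported, against 952 and 309 with quantile normalization, 1046 and 311 with median scaling and 906 and 255 with scaling on detected probes. Jun differed by -1.28, -1.21 and -1.27 under these 3 settings and Egr1 by -1.65, -1.48 and -1.53.

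In the fetal pools none of the 10 genes was called, against 1.93% of all genes (281 of 14574; 0.501% higher and 1.43% lower), all 10 being well above background on both arrays of both samples. At an unadjusted p under 0.05, limma found 4 of the 10, against 2 with quantile normalization and 0 with median scaling. The share of all genes at that unadjusted mark is not given here. An adjusted p under 0.05 at less than 2-fold was found for 2 of the 10, when 22% of all genes had an adjusted p under 0.05. None was called under any alternative run. Jun had scaled signals of 1.51 and 1.51 in KO-Fetal against 1.46 and 1.51 in WT-Fetal, a difference of 0.03 ± 0.03 (adjusted p = 0.638, limma). Egr1 had -0.33 and -0.22 in KO-Fetal against -0.33 and -0.32 in WT-Fetal, with overlapping arrays (0.05 ± 0.11, adjusted p = 0.798, limma).

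The 2 genes with an adjusted p under 0.05 between the fetal pools were Ier2 and Jund. Ier2 had -1.29 and -1.22 in KO-Fetal against -0.69 and -0.77 in WT-Fetal, a difference of -0.53 ± 0.09 (adjusted p = 0.00638, limma). Jund differed by 0.18 ± 0.05 (adjusted p = 0.0286, limma), with 4.92 and 4.83 in KO-Fetal against 4.74 and 4.65 in WT-Fetal. Fos, measured in the fetal pools, differed by 0.06 ± 0.19, with spot medians of 45.0 and 43.95 in KO-Fetal against 50.3 and 47.2 in WT-Fetal before scaling. Jund's adjusted p in limma was 0.176 with quantile normalization, 0.163 with the value table and 0.0604 with scaling on detected probes, and with median scaling that of both Ier2 and Jund was 1. Fosb (0.18 ± 0.20), Fosl2 (-0.17 ± 0.09), Junb (-0.12 ± 0.19), Ier3 (0.49 ± 0.20) and Ier5 (-0.43 ± 0.17) did not pass the test.

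**Figure D3:**
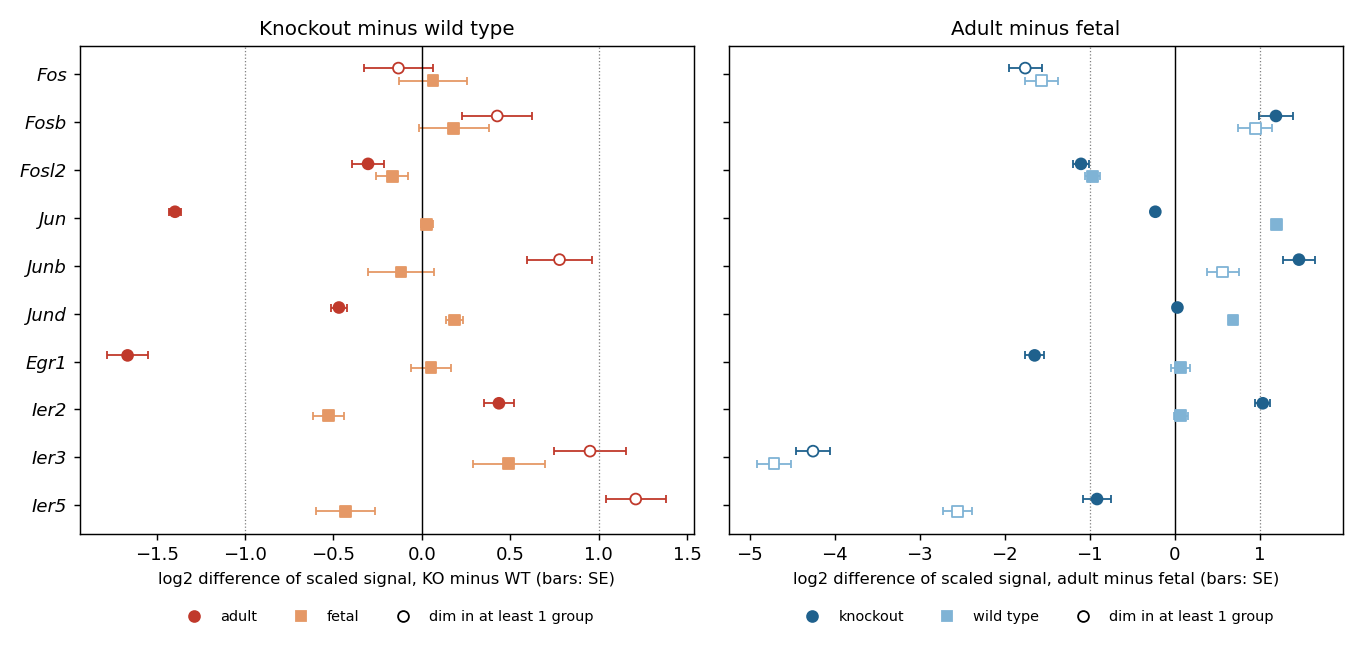
Log2 difference of scaled signal (x axis; bars are limma's SE) for the 10 genes (y axis), knockout minus wild type in adult and fetal liver on the left and adult minus fetal liver in knockout and wild type on the right. Open symbols mark comparisons with a group dim on both arrays, and dotted lines mark 2-fold; Jun (-1.40) and Egr1 (-1.66) stand left of the 2-fold line in adult liver and near 0 in fetal liver.

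The knockout differences of Jun, Egr1 and Ier5 were themselves different between stages. Adult minus fetal, the knockout effect differed by -1.42 ± 0.05 for Jun (adjusted p = 2.0e-06), by -1.72 ± 0.16 for Egr1 (1.2e-04) and by 1.64 ± 0.24 for Ier5 (0.001), by limma's interaction term. This term was called for 9.75% of all genes (6.03% higher and 3.72% lower). Higher and lower calls numbered 879 and 542 as reported and 1180 and 341 with scaling on detected probes. For Ier5 it rests on a WT-Ad sample in which the probe was not well above background, and it was lost with normexp (0.46) and with the mean of both probes (0.91). Ier2 (0.96 ± 0.12), Jund (-0.65 ± 0.06) and Junb (0.90 ± 0.26) had an adjusted p under 0.05 (4.9e-04, 1.5e-04 and 0.0242, limma) at less than 2-fold. With the 3 called genes these made 6 of 10, against 51.8% of all genes. Junb's term was 0.08 with normexp (adjusted p = 0.504, limma) and past 2-fold as a call with quantile normalization, the value table and scaling on detected probes. Ier2 and Jund had opposite signs in adult and fetal liver, with Ier2 higher in KO-Ad and lower in KO-Fetal, and Jund the other way round.

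Between stages, calls were common over the whole array, at 53.3% of all genes in knockout (25.8% higher and 27.5% lower in KO-Ad) and 55% in wild type (27.4% higher and 27.6% lower in WT-Ad), so a call by itself says little about the members. In wild type 4 of 10 were called, Jun higher and Fos, Ier3 and Ier5 lower in WT-Ad than in WT-Fetal. In knockout 7 were called, Fosb, Junb and Ier2 higher and Fos, Fosl2, Egr1 and Ier3 lower in KO-Ad than in KO-Fetal. Both comparisons share arrays with the genotype comparisons above. Scaling mattered here: with median scaling the median of all genes was -0.51 in knockout and -0.63 in wild type, against -0.03 and -0.003 as reported. Higher and lower calls then numbered 2747 and 5603 in knockout and 2646 and 6065 in wild type, against 3762 and 4009, and 3991 and 4024, as reported.

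Ier3 gave the widest gap. Its processed signals were 11.3 and 16.1 in KO-Ad against 415 and 430 in KO-Fetal, and 4.83 and 6.16 in WT-Ad against 362 and 349 in WT-Fetal. The adult signals were not well above background, and the probe passed the filter through its fetal signal only. By the bound, KO-Ad was at least 10.0-fold lower than KO-Fetal. The fitted difference, -4.26 ± 0.20 (adjusted p = 3.8e-07, limma), takes the adult background signals as they are. The bound for WT-Ad against WT-Fetal was at least 6.03-fold lower (fitted difference -4.72 ± 0.20, adjusted p = 2.0e-07, limma). Both calls held under all 20 alternatives run. With normexp the log2 differences were -2.09 in knockout and -1.61 in wild type, smaller than these bounds. Ier5 was, by the bound, at least 3.21-fold lower in WT-Ad than in WT-Fetal (fitted difference -2.55 ± 0.17, adjusted p = 2.7e-06, limma). With normexp the call was lost, at a log2 difference of -0.75, smaller than that bound. Between KO-Ad and KO-Fetal the difference of Ier5 was -0.91 ± 0.17. By the other Ier5 probe both stage differences were called (-1.65 ± 0.28 in wild type and -1.47 ± 0.28 in knockout). That probe was not well above background on any adult array and passed the filter through its fetal signal only. Both of its values therefore set fetal signal against background.

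For Fos the stage difference depends on how dim signal is treated. Its fitted values were -1.76 ± 0.19 in knockout and -1.56 ± 0.19 in wild type, and with normexp they were 0.05 and 0.35. By the bound Fos was at least 1.05-fold lower in KO-Ad than in KO-Fetal, and in wild type the bound allowed no fold. In the fetal pools all 10 Fos spots on each array were well above background.

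Jun and Egr1 were ordered differently across the 4 samples. For Jun the order of mean levels was WT-Ad (2.68), KO-Fetal (1.51), WT-Fetal (1.48) and KO-Ad (1.28), where the fetal neighbours overlapped. WT-Ad exceeded WT-Fetal by 1.20 ± 0.03 (adjusted p = 1.6e-08, limma), short of 2-fold with normexp, the deposited value table and each other scaling tried, and lowest with median scaling (0.57). KO-Ad differed from KO-Fetal by -0.23 ± 0.03. For Egr1 the mean levels of WT-Ad (-0.26), KO-Fetal (-0.27) and WT-Fetal (-0.33) were not told apart by their duplicates, and KO-Ad (-1.92) alone stood below them. Egr1 was 3.13-fold lower in KO-Ad than in KO-Fetal (-1.65 ± 0.11, adjusted p = 3.5e-06, limma; lost with normexp).

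For the other genes the order of the mean levels was as follows. Fosl2 was highest in WT-Fetal (0.43) and KO-Fetal (0.26), followed by WT-Ad (-0.53) and KO-Ad (-0.84). KO-Ad lay below KO-Fetal by 1.10 ± 0.09 and WT-Ad below WT-Fetal by 0.96 ± 0.09, and only the first was past 2-fold as reported. Ier2 was highest in KO-Ad (-0.22), with WT-Ad (-0.65) and WT-Fetal (-0.73) next (0.07 ± 0.09, adjusted p = 0.444, limma) and KO-Fetal (-1.26) last. Its difference of KO-Ad from KO-Fetal, 1.04 ± 0.09, was lost as a call with normexp, with 2 of the other scalings and without the first KO-Ad array. Jund ranged from 4.70 in WT-Fetal to 5.38 in WT-Ad, with KO-Ad (4.91) and KO-Fetal (4.88) overlapping. Fosb and Junb had their highest scaled signals in KO-Ad, 1.19 ± 0.20 and 1.46 ± 0.19 above KO-Fetal. The Fosb call did not hold with normexp, the value table or any other scaling, and the Junb call was lost with normexp and with median scaling.

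Other genes of the immediate early response, taken from a list of 41 of which 35 were tested, mostly missed the call in adult liver. Among them 3 fell and 1 rose (list median -0.14, against -0.10 over all genes), when 2.53% of all genes were called lower and 4.95% higher. Btg2 was the deleted gene. Gadd45b, a stress-inducible gene of growth arrest, had -0.95 and -0.89 in KO-Ad against 1.997 and 1.95 in WT-Ad and fell by 2.90 ± 0.06 (adjusted p = 9.5e-08, limma), past 2-fold under all 21 alternatives. Those changing only the test or leaving out a fetal array could not move this difference. Plk3, a stress-responsive kinase gene, fell by 1.10 ± 0.06 (adjusted p = 6.3e-06, limma), which fell short of 2-fold with normexp, the value table and each other scaling. Tnfaip3, an inhibitor of NF-kB signalling, rose by 1.00 ± 0.11 (adjusted p = 1.6e-04, limma) and lost its call with normexp and without the second KO-Ad or the second WT-Ad array. In the fetal pools Btg2 alone was called on this list. Between stages 12 were called higher and 5 lower in KO-Ad against KO-Fetal (10 to 13 and 4 to 11 over the alternatives), when 25.8% and 27.5% of all genes were. The 12 include Btg2, which was not well above background in either knockout sample, so that its call compares background signals. In WT-Ad against WT-Fetal 13 were called higher and 6 lower (11 to 14 and 5 to 9 over the alternatives), when 27.4% and 27.6% of all genes were.

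The partners of AP-1 and Egr1 gave 2 rises among 11 tested in adult liver and no fall (list median 0.03). Of all genes, 4.95% were called higher there and 2.53% lower. Batf3, an AP-1 factor of dendritic cells, had -0.04 and -0.02 in KO-Ad against -1.66 and -1.84 in WT-Ad and rose by 1.72 ± 0.08 (adjusted p = 3.8e-06, limma). Batf, a related factor of lymphocytes and myeloid cells, was by the bound at least 2.50-fold higher in KO-Ad. Its fitted difference was 1.65 ± 0.12 (adjusted p = 3.0e-05, limma), with WT-Ad not well above background. It lost its call with normexp, where its log2 difference of 0.47 was smaller than that bound. None was called between the fetal pools (limma), nor under any alternative run.

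Of the 21 kinases, receptors and promoter-bound factors upstream, limma called none in either knockout comparison, also under every alternative run. Of all genes, 7.48% were called in the adult and 1.93% in the fetal comparison. In adult liver the 21 had a median of -0.06. In the difference of the 2 knockout effects, where 9.75% of all genes were called, 1 of the 21 was. It was Met, the hepatocyte growth factor receptor gene, named after its value was seen. Its difference was -0.59 ± 0.09 between the adult samples and 0.45 ± 0.09 between the fetal pools (difference of effects -1.03 ± 0.13, adjusted p = 5.5e-04, limma). Met was not called with normexp, the value table or any other scaling, nor without the second WT-Fetal array, where the list had no call.

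Markers of other cells moved in the same adult samples, where 4.95% of all genes were called higher and 2.53% lower. All 13 tested markers of Kupffer cells and macrophages rose in KO-Ad (12 to 13 over the alternatives; list median 2.44), and their summed signal was 384 to 391 times the array's 75th percentile in KO-Ad against 67.0 to 70.6 times in WT-Ad. Both KO-Ad arrays had all 13 well above background, and both WT-Ad arrays 11. Of 7 heat shock chaperones, Hspa1a (-1.53 ± 0.18) and Hspb1 (-1.28 ± 0.04) fell, the first not with normexp, and the list median was -0.74. Their summed signal was 379 to 388 times the 75th percentile in KO-Ad against 622 to 625 times in WT-Ad. Stellate cell and fibroblast markers summed to 7.0 to 7.05 times in KO-Ad against 2.84 to 2.85 times in WT-Ad (3 of 6 rose). Of 7 neutrophil markers S100a8 and S100a9 rose (0 to 3 over the alternatives), but the list median was -0.095. In 1 or both samples, 3 of the 7 were well above background on neither array. Of 6 endothelial markers Tek rose, though not with normexp (list median 0.51). Hepatocyte markers summed to 3536 to 3545 times in KO-Ad against 4022 to 4128 times in WT-Ad (none of 6 called in limma, nor under any alternative). In bulk RNA, fewer cells of a type and less RNA per cell cannot be told apart, and the part of these markers in the differences of the immediate early genes was not tested.

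Between the fetal pools, none of the Kupffer cell, neutrophil, erythroid, endothelial, stellate or hepatocyte markers was called in limma, nor under any alternative. Between stages the signals of erythroid and neutrophil markers differed widely. Erythroid markers summed to 2848 to 2872 times the 75th percentile in KO-Fetal and 2320 to 2562 times in WT-Fetal. Their sums were 1020 to 1040 times in KO-Ad and 1114 to 1124 times in WT-Ad. The erythroid list median, adult minus fetal, was -5.46 in knockout and -4.75 in wild type, with Hemgn alone called higher in adult liver. Neutrophil markers summed to 5.48 to 5.68 times in KO-Ad and 4.60 to 4.75 times in WT-Ad, against 436 to 442 times in KO-Fetal and 342 to 347 times in WT-Fetal. The part of these markers in the stage differences was not tested either.

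The genes whose pattern over the 8 arrays lay nearest to Fos, Jun and Egr1 were looked up among 10600 genes well above background on all arrays, by the Euclidean distance between scaled signals centred on each gene's own mean. Nearest to Jun were Gfra4 (0.28), 1700008J07Rik (0.28) and Eme2 (0.48). Nearest to Egr1 were Slc16a13 (0.47) and Arhgap17 (0.55), and nearest to Fos were Tab3 (0.07), Rnf26 (0.08) and Spidr (0.11). The adult signals of Fos were not well above background, so its distances rest in part on background signal. A small distance describes 4 RNA samples.

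**Figure D4:**
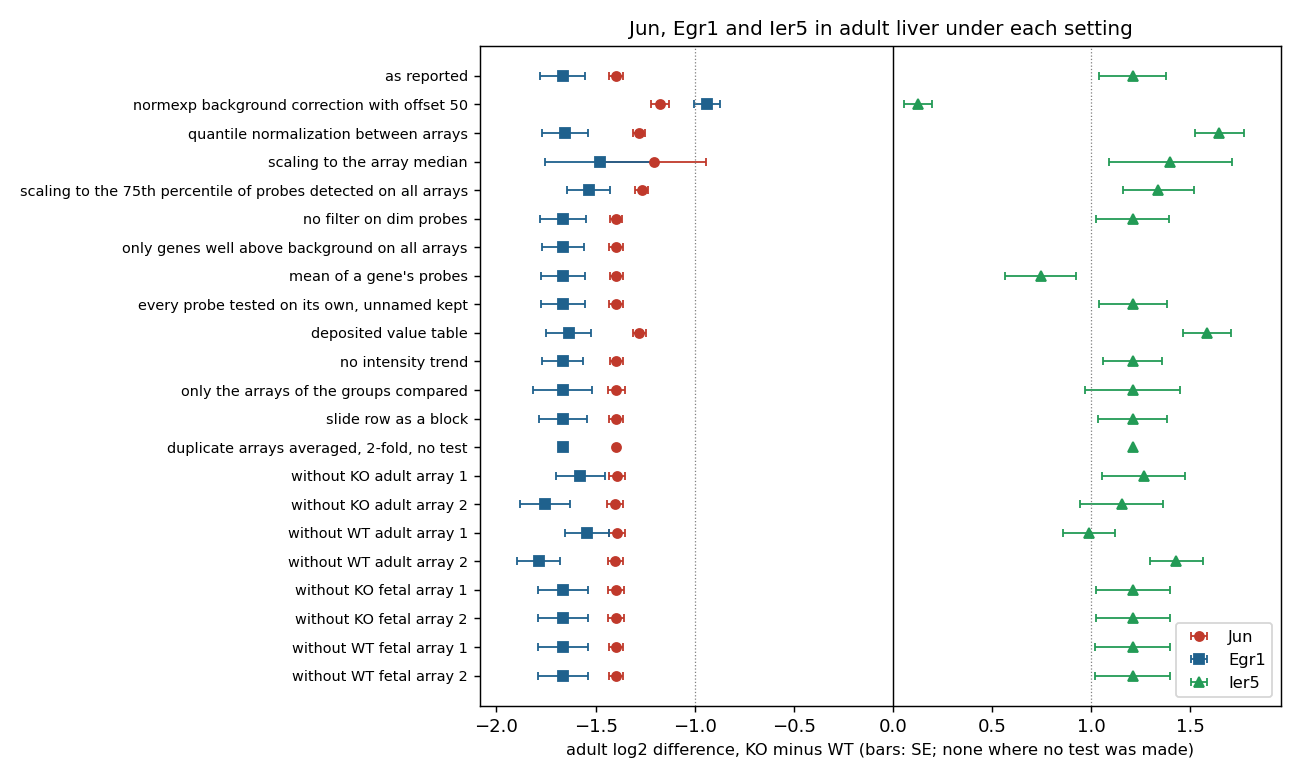
Adult log2 difference, knockout minus wild type (x axis; bars are limma's SE), of Jun, Egr1 and Ier5 as reported and under each alternative (y axis). Jun stays below the 2-fold line at -1 throughout, Egr1 moves to -0.94 with normexp, and Ier5 runs from 0.13 with normexp to 1.65 with quantile normalization.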

How the data were processed

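Single-colour Agilent arrays measured 4 liver RNA samples, with 2 arrays each. Total RNA (Trizol; 200 ng, Cy3), per the labels' protocols, was labelled for hybridisation. The deposited scanner files hold an intensity per spot, made with Feature Extraction 10.7.3.1, per the file headers. The 8 arrays shared 1 slide and 1 scan. The deposited value table holds linear intensity of unstated normalization. Its columns share a median of 18.1 and a 75th percentile of 185, and it served as an alternative only, as log2(value + 1).

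Control spots were left out, outlier-flagged spots set to missing (no member value was lost), and spots of a probe averaged. The log2 processed signal was scaled to each array's 75th percentile. Accessions were matched to RefSeq (GRCm38.p6), naming 26756 of 55681 probes. Testing required a probe to be well above background in at least 1 group (both arrays), and the brightest such probe stood for its gene (14574 genes). All arrays were fitted in 1 model (limma 3.58.1, trend, R 4.3.3). A "dim" group has a probe well above background on neither array. Bounds then use the higher of its signal and the array's lowest signal well above background. That lowest signal is no ceiling for probes that were not well above background, so a bound is not a strict minimum. The fit was tested on simulated data. Members, lists and named genes (called list genes in the knockout comparisons and 3 nearest patterns each, of which 1 is not reported here) were chosen with earlier results of these data known; the half-site TGACG was added to the promoter search after the sequences were seen. Alternatives varied background correction, scaling, filter, probes, values, test, slide row and arrays left out. normexp used median spot signals, as the files hold no mean.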

Additional observations from a re-analysis of the deposited data

Results flagged for a closer look

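For 3 of the 10 genes the knockout difference in adult liver was not that in fetal liver, by limma's test of the difference itself. The adult effect minus the fetal effect was -1.42 for Jun, with a knockout difference of -1.40 in adult and 0.03 in fetal liver. It was -1.72 for Egr1, with -1.66 in adult and 0.05 in fetal liver. It was 1.64 for Ier5, with 1.21 in adult and -0.43 in fetal liver, and WT-Ad was below the mark for background. It was 0.46 for Ier5 with normexp and 0.91 with the mean of its probes, neither a call. Among all genes 9.75% were called in this test. Each value rests on 1 RNA sample per group. Groups of 2 arrays are too small to single out an outlying array.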

How the results depend on the processing

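Each comparison was refitted under up to 21 alternatives. Alternatives that change only the test, or leave out an array of a group not compared, cannot move a difference. Of the values of genes called as reported, 494 kept their direction and call, 35 lost the call and 2 changed sign. These counts pool the members in all comparisons with list genes that were included because they were called. The list genes were Batf, Batf3, Btg2, Gadd45b, Hspa1a, Hspb1, Plk3 and Tnfaip3 in adult knockout, and Btg2, the deleted gene, in fetal knockout. Alternatives that could not move a difference are counted too. Of the member values not called as reported, 620 stayed so, 24 became calls and 26 changed sign. In adult knockout minus wild type, 1090 genes were called as reported, 347 with normexp, 501 among genes well above background on all arrays and 1991 with every probe on its own. The members called were then 3 as reported, 1 with normexp and 5 with quantile normalization and with the value table. In fetal knockout minus wild type the count of 281 was 67 with normexp, 26 among genes well above background on all arrays and 459 with every probe on its own. For the difference of both effects, 1421 became 472, 696 and 2765 under the same 3 settings. With detected-probe scaling it was called for 1521 genes, 5 of them members. Between stages, 5327 genes in wild type and 5139 in knockout were called among genes well above background on all arrays, and 15152 and 14271 with every probe on its own. With normexp 5978 genes were called in wild type and 5616 in knockout, with 1 member in each genotype. Members were 1 in wild type and 3 in knockout among genes well above background on all arrays, where only 5 members are tested.

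Signs changed with normexp for Fosb (-0.064) and Ier3 (-0.078) in adult knockout, Jun (-0.061) and Junb (0.072) in fetal knockout, Fos (0.35 in wild type, 0.046 in knockout) and Jund (-0.14 in knockout) between stages, and Fosb (-0.20) and Ier3 (-0.48) in the difference of effects. With median scaling they changed for Fos in adult knockout (0.057), Junb (-0.062), Egr1 (-0.56) and Ier2 (-0.56) between wild-type stages, Jund (-0.44) between knockout stages and Fosl2 in the difference of effects (0.015). With detected-probe scaling they changed for Jun in fetal knockout (-0.014), Egr1 (-0.37) and Ier2 (-0.36) between wild-type stages, Jund (-0.23) between knockout stages and Fosl2 in the difference of effects (0.034). With quantile normalization and the value table, Junb between wild-type stages was -0.034 and -0.033, and Jund between knockout stages -0.31 in both. The cause was not tested.

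Leaving out 1 array changed the sign of Egr1 in fetal knockout (-0.0015 to 0.10), Egr1 between wild-type stages (-0.055 to 0.19) and Jund between knockout stages (-0.013 to 0.079). Other calls at the 2-fold edge came or went with 1 array: Ier3 in adult knockout without the first KO-Ad or second WT-Ad array (0.69 to 1.21 over all arrays left out), Fosl2 between wild-type stages without the second WT-Ad or second WT-Fetal array (-1.03 to -0.90), Fosb there without the first WT-Fetal array (0.85 to 1.04), and Ier2 in the difference of effects without the second KO-Ad or second WT-Fetal array (0.92 to 1.01). The first and second arrays of all groups lay in different rows of the slide, and the replicate numbers only name arrays. Each group filled its own column of the slide, so differences between groups and between columns cannot be told apart. With the row as a replicate block, 1087 genes were called in adult and 273 in fetal knockout, 1420 in the difference of effects, and 8017 and 7768 between stages, with 3, 0, 3, 4 and 7 members called; no member's call changed. Where a sample is left with 1 array, that array is taken to vary like the others. Signals near background limit Fos, Fosb, Junb, Ier3 and Ier5 in adult liver. Egr1 was well above background on all adult arrays, but its KO-Ad signals (42.4 and 47.6) were close to those of Junb there (37.9 and 42.2).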
